A study of Phrynocephalus vlangalii with 2 samples.

Results

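Signals from hormones, transmitters and light reach the inside of a cell largely through heterotrimeric G proteins, whose alpha subunit exchanges GDP for GTP when a receptor is activated and parts from its beta and gamma subunits. Stimulating alpha subunits switch on adenylate cyclases, which make cyclic AMP, and inhibiting ones restrain them. Nitric oxide, made from arginine by nitric-oxide synthase, switches on soluble guanylate cyclase, which makes cyclic GMP. Phosphodiesterases break both messengers down, and cyclic AMP acts in large part by releasing the catalytic subunits of protein kinase A from their regulatory subunits. In heart and skeletal muscle this system tunes contraction, in liver it drives glucose release, and in lung vessels it sets tone.

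The genes described here are the assembled genes of a toad-headed lizard, Phrynocephalus vlangalii, whose annotation text names a G protein subunit, a regulator of G-protein signalling, an adenylate or guanylate cyclase, a phosphodiesterase, a subunit of cAMP-dependent protein kinase or a nitric-oxide synthase. The text search took in 155 of 58458 assembled genes, called copies below, under 47 of 4819 annotation names. Phosphodiesterases that act on lipids or DNA share the word and are given apart from those of the cyclic nucleotides. No text held "A-kinase anchor", so 0 copies stand for the anchoring proteins of protein kinase A.

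The Madoi library held RNA of adult animals of the Madoi population, and the Maqu library RNA of adult animals of the Maqu population. Each was a mixture of liver, lung, heart and muscle, and the number of animals behind it is not stated in the labels. The series title places the comparison in a study of life at high altitude in an animal that does not regulate its temperature. The Madoi library held 63636521 estimated reads and the Maqu library 66401051. Since each population has a single library, nothing below has a replicate check, and every ratio compares these 2 libraries.

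Gene Ontology (GO) terms, which the deposited table gives beside the annotation text, served as a check on the names. Of the 155 copies 134 carried GO terms, and in 101 these named the activity or complex that the text states. All 17 alpha-subunit copies and all 6 nitric-oxide synthase copies had such terms, against 17 of 38 adenylate cyclase copies. Where the terms of a leading copy differ from its text, they are named beside its value.

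Ratios are log2 values of Madoi over Maqu from read counts, each with a 95% counting interval, and levels are RPKM, reads scaled to the effective length of the transcript and to library size. A call of higher or lower required 10 or more reads over both libraries and a difference of at least 2-fold. Its counting interval had to leave out equality, but did not have to lie past 2-fold. Copies with no read in Maqu may not be lizard sequences. They were left out of the sums and are given apart.

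Most signalling names had similar read numbers in the libraries. Of 46 names with a copy read in Maqu, 1 was called higher in Madoi (2.17%, against 5.89% of all 4702 such names) and 4 were called lower (8.7%, against 7.15% of all names). The median ratio of the 46 names was 0.02, and that of all names was 0.00. The ranked ratios of the 46 names gave an interval from -0.30 to 0.20 for their median. This interval describes the spread over names, not over libraries or animals. Of 137 copies read in Maqu, 9 were called higher (6.57%, against 13.1% of all copies) and 10 lower (7.3%, against 13% of all copies). The 10 include a copy read in Maqu alone, whereas the 18 copies read in Madoi alone were left out. The higher and lower counts are therefore not on equal terms. The called higher name was the alpha o subunit. The called lower names were the alpha 15 subunit, the text "gamma, other", alkylglycerophosphoethanolamine phosphodiesterase and ectonucleotide pyrophosphatase/phosphodiesterase 6.

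**Figure D1:**
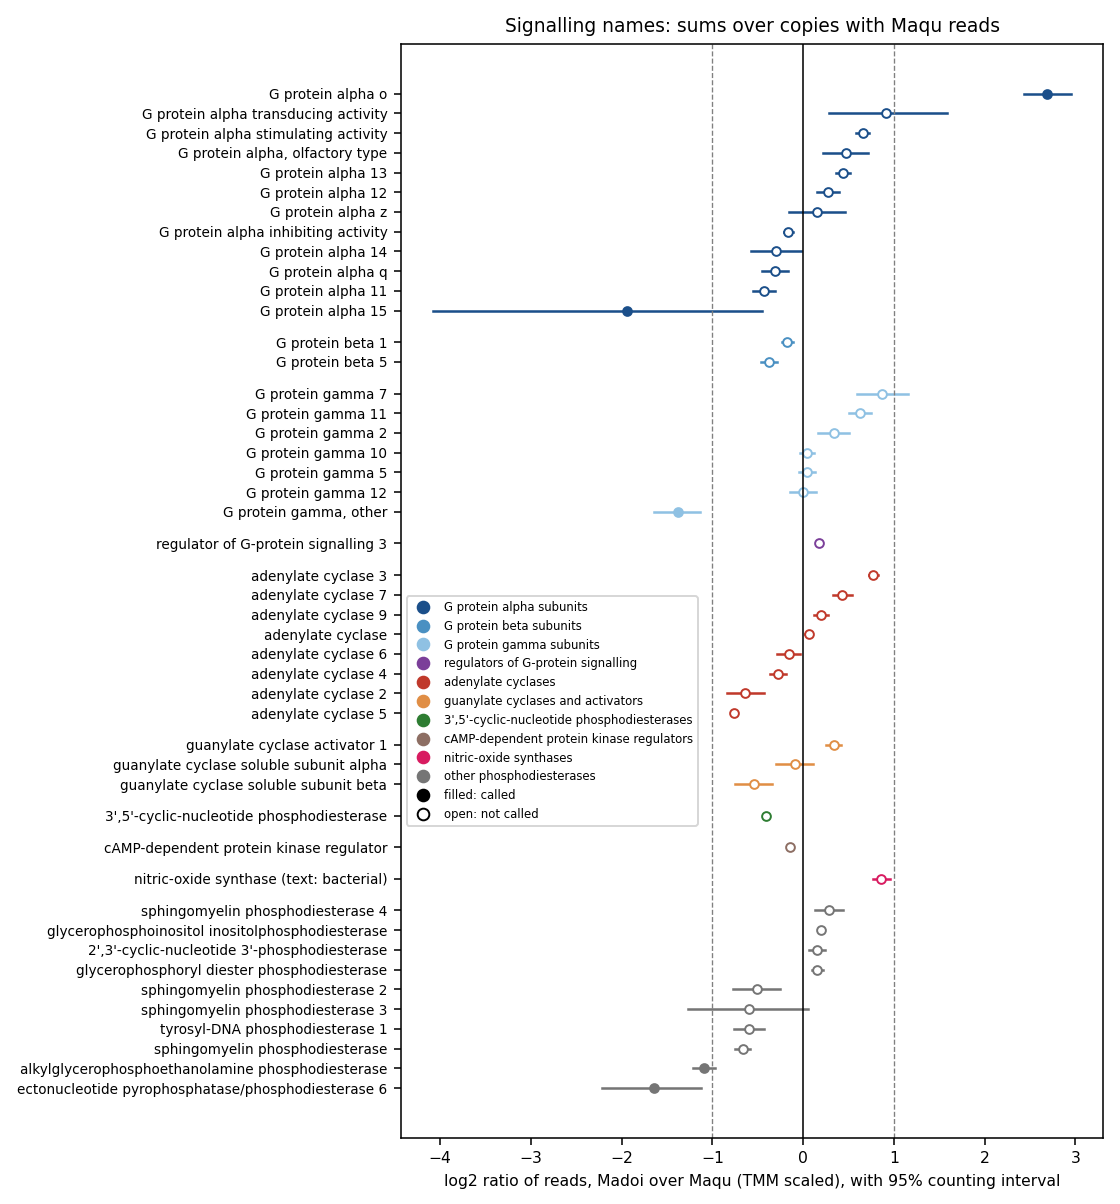
Log2 ratio of estimated reads in Madoi over Maqu for the 46 names, in blocks by role, with lines for the 95% counting interval, dashed lines at 2-fold, and filled points for called names. The alpha o subunit lies far to the right at 2.69, while the other 45 names lie between -1.94 and 0.91.

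The alpha o subunit, which couples receptors to ion channels and is abundant in mammalian neurons, differed most among the G proteins. Its copy comp26013_c0 had 861 reads in Madoi against 144 in Maqu, or 12.35 RPKM in Madoi and 2.16 RPKM in Maqu. It was 6.43-fold higher in Madoi, with a log2 ratio of 2.69 (2.43 to 2.95). In the authors' deposited table this copy was marked significant, with an FDR of 0.22. A further pair of alpha o copies was read in Madoi alone, with 79 and 37 reads.

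Genes of neurons were read beside it. On the neuron list, neurofilament light polypeptide, an axon filament protein, had 1067 reads in Madoi against 82 in Maqu (log2 ratio 3.80), and synaptic vesicle glycoprotein 2 had 95 in Madoi against 10 in Maqu (3.29). The other 3 neuron-list names with 10 reads lay between -0.23 and 0.15. Microtubule-associated protein tau had 69 reads in Madoi against 67 in Maqu (0.15, from -0.35 to 0.66). The rest were synaptosomal-associated proteins, which many other cells also make. The list's 5 names had a median of 0.15 and a summed level of 48.52 RPKM in Madoi and 45.43 RPKM in Maqu, and no text matched synapsin or synaptotagmin-1. The part of nerve tissue in the alpha o value was not tested. In such tissue mixtures, fewer cells of a type and less RNA per cell cannot be told apart.

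The other alpha subunits spread around 0, and the role's median over 12 names was 0.21. The stimulating subunit, which activates adenylate cyclase, had 4162 reads in Madoi against 2855 in Maqu, a log2 ratio of 0.65 (0.58 to 0.72) and levels of 19.92 RPKM in Madoi and 13.85 RPKM in Maqu. The inhibiting subunits, under 1 name with 3 copies, had 6243 reads in Madoi against 7544 in Maqu, a log2 ratio of -0.16 (-0.21 to -0.11). They had the highest level of the role, 57.88 RPKM in Madoi and 67.32 RPKM in Maqu, and all 3 copies lay between -0.22 and -0.10. Stimulating and inhibiting subunits thus lay on opposite sides of 0, neither past 2-fold.

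The alpha 12 and alpha 13 subunits, which act on the actin cytoskeleton, had log2 ratios of 0.28 and 0.44. Alpha 13 had 2950 reads in Madoi against 2354 in Maqu. Over copies read in Maqu, the subunits that activate phospholipase C beta were lower by less than 2-fold or called lower. Alpha 11 had 999 reads in Madoi against 1453 in Maqu (log2 ratio -0.43), alpha q 719 in Madoi against 963 in Maqu (-0.31), and alpha 14 196 in Madoi against 260 in Maqu (-0.30). With a further copy added, which had 459 reads in Madoi and none in Maqu, alpha q lay at 0.40. Alpha 15, a blood-cell subunit in mammals, had 4 reads in Madoi against 18 in Maqu, and its interval ran from -4.08 to -0.46.

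The texts of sensory subunits were found at low levels. The olfactory type had 319 reads in Madoi against 249 in Maqu (log2 ratio 0.47). The transducing subunit, named after the light signal of photoreceptors, had 58 in Madoi against 33 in Maqu (0.91). Its copy had no GO term for visual perception, and the olfactory copy shared an assembly component with the stimulating subunit.

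Both beta subunit names lay slightly below 0. Beta 1 had 4186 reads in Madoi against 5103 in Maqu, a log2 ratio of -0.18 over 2 copies. The larger of these in Madoi, comp39015_c0, had nucleus as its only GO term. Beta 5, which in mammalian neurons partners with regulators of G-protein signalling, had 1721 reads in Madoi against 2407 in Maqu, a ratio of -0.37, but its copies lay on opposite sides of 0. The copy with G protein terms, comp28614_c0, had 435 reads in Madoi against 250 in Maqu (0.91). The other, comp37987_c0, whose GO terms name phospholipase A2 activation, had 1286 reads in Madoi against 2157 in Maqu (-0.64).

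Among the gamma subunits, which anchor the beta subunit to the membrane, 6 of 7 names lay at or above 0. Gamma 7 had 287 reads in Madoi against 169 in Maqu (log2 ratio 0.87), and gamma 11 1400 in Madoi against 977 in Maqu (0.63). Gamma 5 had the highest level, 48.64 RPKM in Madoi and 49.06 RPKM in Maqu, with a ratio of 0.04. Gamma 12, with 790 reads in Madoi against 852 in Maqu, had a ratio of 0.00. The text "gamma, other" had 176 reads in Madoi against 497 in Maqu from comp23198_c0, and was 2.61-fold lower in Madoi. A second copy under this text, comp17774_c0, had 308 reads in Madoi and none in Maqu, and with it the ratio of the sum was 0.07 in place of -1.39. The direction under this text therefore rests on whether that copy is counted.

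Regulators of G-protein signalling speed up GTP hydrolysis by the alpha subunit and so end the signal. All 9 copies carried the text "regulator of G-protein signalling 3", and their sum was nearly even, with 22131 reads in Madoi against 21186 in Maqu (log2 ratio 0.17). The copies within it were not alike. Comp38892_c0 had 5376 reads in Madoi against 2452 in Maqu and was called higher (1.24). Comp35649_c0, which had no GO terms, was also called higher, with 1583 reads in Madoi against 747 in Maqu (1.19). Of the 9 copies 2 were called higher, where 13.1% of all copies were, and 0 lower, where 13% were. Comp31103_c0, with 577 reads in Madoi against 1033 in Maqu, lay at -0.73.

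The largest of these copies, comp40793_c0, was made of 64 assembled transcripts and had 12076 reads in Madoi against 14093 in Maqu. It held 54.6% of the name's reads in Madoi and 66.5% in Maqu, and its GO terms name no regulator of G-protein signalling. The 6 copies whose terms do name one summed to 7961 reads in Madoi against 5676 in Maqu, a ratio of 0.60. In the authors' deposited table comp38892_c0 was the only copy of this text marked significant.

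The 8 adenylate cyclase names had a median ratio of -0.05. Of these 0 were called, where 5.89% of all names were called higher and 7.15% lower. Adenylate cyclase 3, an isoform best known from olfactory neurons and also found in other tissues, had 7629 reads in Madoi against 4816 in Maqu, and its log2 ratio of 0.77 (0.72 to 0.83) was the highest of the role. Its level was 30.34 RPKM in Madoi and 18.44 RPKM in Maqu. Adenylate cyclase 7 had 1571 reads in Madoi against 1257 in Maqu (0.43), and adenylate cyclase 9 2716 in Madoi against 2553 in Maqu (0.20).

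Below 0 lay adenylate cyclase 6, a main isoform of mammalian heart, with 993 reads in Madoi against 1199 in Maqu (-0.16). Adenylate cyclase 4 had 1777 reads in Madoi against 2328 in Maqu (-0.28), and adenylate cyclase 2 327 in Madoi against 549 in Maqu (-0.64). Across these 6 isoforms all but 1 copy carried cyclase terms. The intervals of isoforms 3 and 2, the highest and lowest of the 6, did not overlap, whereas those of isoforms 6 and 4 did. Isoforms 3 and 2 were picked as extremes by their values, and the intervals cover counting error only.

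Adenylate cyclase 5, the other main isoform of mammalian heart, stood lowest by text, with 12461 reads in Madoi against 22867 in Maqu (-0.77). Most of these reads came from copies without cyclase terms. The 5 of 14 copies with such terms held 1.91% of the name's reads in Madoi and 1.18% in Maqu, summing to 238 reads in Madoi against 270 in Maqu, with a ratio of -0.07 (-0.33 to 0.18). The largest copy, comp40573_c0, had 5637 reads in Madoi against 14368 in Maqu (-1.24) and GO terms for mitochondrion and intermediate filament. By RPKM its ratio was -0.88, and that of the whole text was -0.43. In the authors' deposited table comp40573_c0 had an FDR of 0.002 but was not marked significant. Comp40820_c0, with 1318 reads in Madoi against 3002 in Maqu (-1.08, by RPKM -0.96) and no GO terms, was marked. Neither copy passed 2-fold by RPKM. Within the cyclase-annotated copies comp236702_c0, with 50 reads in Madoi against 26 in Maqu, was called higher (1.04, from 0.34 to 1.80).

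The text "adenylate cyclase" with no number had 8670 reads in Madoi against 8977 in Maqu over 8 copies (0.06). Of its 11 copies, the 3 at 0 in Maqu included, 0 had GO terms for a cyclase.

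Nitric-oxide synthase lay above 0. Its text reads "nitric-oxide synthase, bacterial", but all 6 copies had GO terms for nitric-oxide synthase activity together with caveola or dendritic spine, which are parts of animal cells. The 6 copies summed to 2611 reads in Madoi against 1549 in Maqu, or 25.50 RPKM in Madoi and 15.65 RPKM in Maqu. The log2 ratio was 0.86 (0.77 to 0.95), below the 2-fold threshold.

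This difference came mostly from the copies with caveola terms, membrane pits common in endothelium. Comp37525_c0 had 1060 reads in Madoi against 491 in Maqu and was called higher (1.22), and comp31861_c0 had 913 in Madoi against 504 in Maqu (0.97). Of the 6 copies 1 was called higher, where 13.1% of all copies were, and 0 lower, where 13% were. The sum of the caveola copies had a ratio of 1.10 (0.99 to 1.21). This grouping was made after the file was opened, and its sum has no share over all genes beside it. The 4 copies with dendritic spine terms had 638 reads in Madoi against 554 in Maqu, a ratio of 0.31 (0.15 to 0.48). The intervals of the caveola and dendritic spine sums, which cover counting error only, did not overlap.

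Soluble guanylate cyclase, the receptor of nitric oxide, works as a dimer of an alpha and a beta subunit, and neither was called. The alpha subunit had 387 reads in Madoi against 446 in Maqu (-0.09), with an interval from -0.29 to 0.11 that spans 0. The beta subunit had 333 reads in Madoi against 524 in Maqu (-0.54, from -0.75 to -0.34). Nitric-oxide synthase and the beta subunit thus lay on opposite sides of 0.

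Guanylate cyclase activator 1, a calcium sensor that acts on guanylate cyclases of photoreceptors, had 2593 reads in Madoi against 2213 in Maqu over 5 copies (0.34). The largest 2, comp28673_c0 with 1377 reads in Madoi against 1196 in Maqu and comp25323_c0 with 1130 in Madoi against 922 in Maqu, had calcium ion binding as their only GO term. The other 3 carried terms for visual perception, and 1 of them had a term for guanylate cyclase activation, with 45 reads in Madoi against 64 in Maqu. The text "guanylate cyclase, other" had 1 copy, read in Madoi alone with 77 reads.

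**Figure D2:**
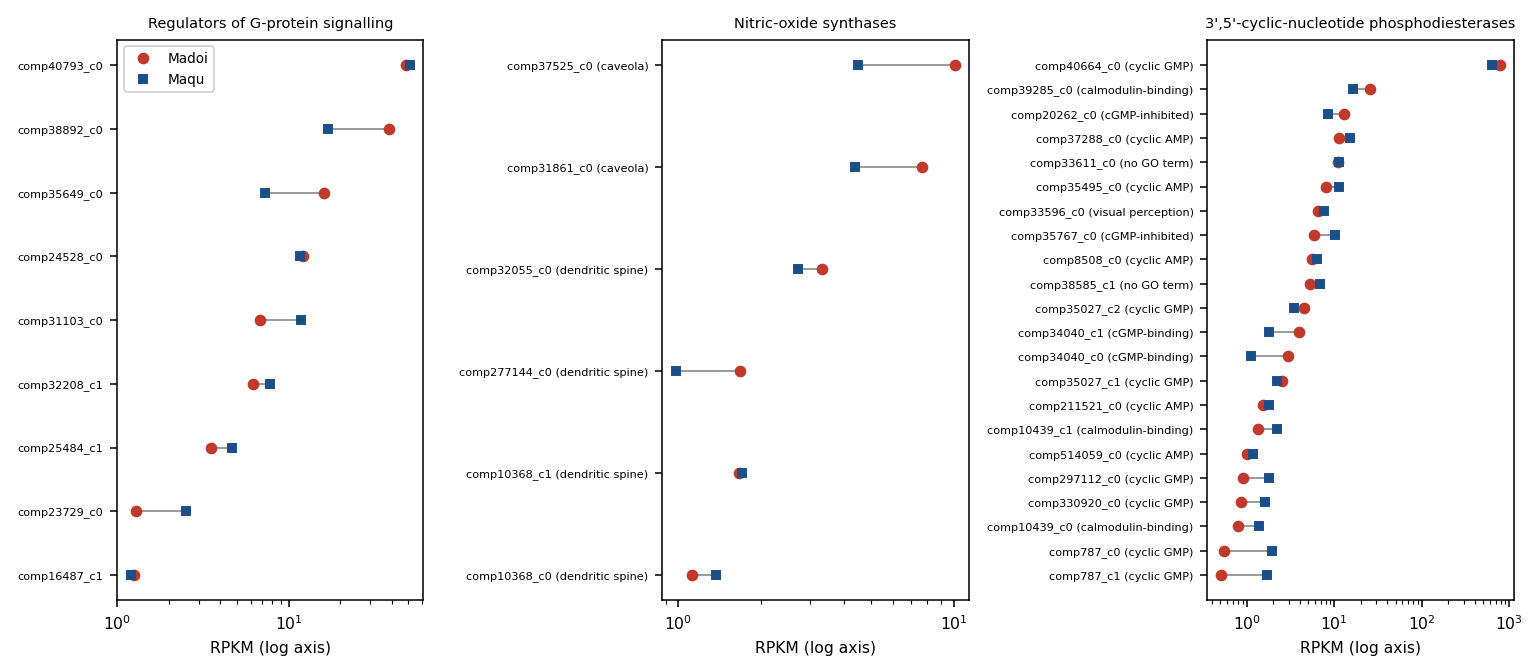
RPKM in Madoi (red circles) and Maqu (blue squares), on log axes, of each copy read in Maqu with the texts regulator of G-protein signalling 3, nitric-oxide synthase and 3',5'-cyclic-nucleotide phosphodiesterase, with short labels from the GO terms for the last 2. Comp40664_c0 lies at 774.87 RPKM in Madoi and 633.67 RPKM in Maqu, and every other phosphodiesterase copy lies below 30.

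The phosphodiesterases of cyclic AMP and cyclic GMP shared 1 text over 25 copies, 22 of them read in Maqu. Together these had 67648 reads in Madoi against 97233 in Maqu, a log2 ratio of -0.41. A single copy, comp40664_c0, set this value. It had 49648 reads in Madoi against 76515 in Maqu (-0.51) and held 73.4% of the reads in Madoi (exact 95% interval 73.1% to 73.7%) and 78.7% in Maqu (78.4% to 78.9%).

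The direction of that copy depended on the unit. Its level was 774.87 RPKM in Madoi against 633.67 RPKM in Maqu, which gives a log2 ratio of 0.34 after the library scaling used for counts. The copy was made of 21 assembled transcripts, and the length behind its RPKM was 1007 bases in Madoi and 1818 bases in Maqu. For the whole text the RPKM ratio was likewise above 0, at 0.29. Without comp40664_c0 the other 21 copies had 17999 reads in Madoi against 20718 in Maqu, a ratio of -0.09. Their summed level was 113.43 RPKM in Madoi and 115.46 RPKM in Maqu, a ratio of 0.02 after that scaling.

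GO terms split the remaining copies by substrate and regulation. Copies with terms for cGMP inhibition, calmodulin binding or visual perception were set apart first, whatever their substrate. Among the rest, 5 copies whose terms name cyclic AMP but not cyclic GMP summed to 4434 reads in Madoi against 6080 in Maqu (-0.35). All 5 lay below 0. The 3 copies with calmodulin binding, typical of the phosphodiesterases that calcium switches on, had 2706 reads in Madoi against 1995 in Maqu (0.55). Nearly all came from comp39285_c0 (0.63), and the other 2 copies lay below 0, at -0.68 and -0.73. The 2 cGMP-inhibited copies had 2508 reads in Madoi against 3768 in Maqu (-0.48). Of these, comp20262_c0 had a ratio of -0.14 by reads and 0.67 by RPKM.

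Of the 22 copies of this text read in Maqu, 2 were called higher, where 13.1% of all copies were, and 2 lower, where 13% were. Both copies of assembly component comp34040, with terms for cGMP binding, were called higher, with 522 reads in Madoi against 244 in Maqu (1.21) and 111 in Madoi against 44 in Maqu (1.43). Both copies of comp787, with terms for cyclic GMP, were called lower, with 12 reads in Madoi against 41 in Maqu (-1.62) and 8 in Madoi against 29 in Maqu (-1.69). Copies that share a component may be pieces of the same gene. Among the 10 components with several copies of the same text read in Maqu, 6 had all copies on the same side of 0. Component comp40026 held the stimulating and the olfactory alpha subunit, under different texts.

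**Figure D3:**
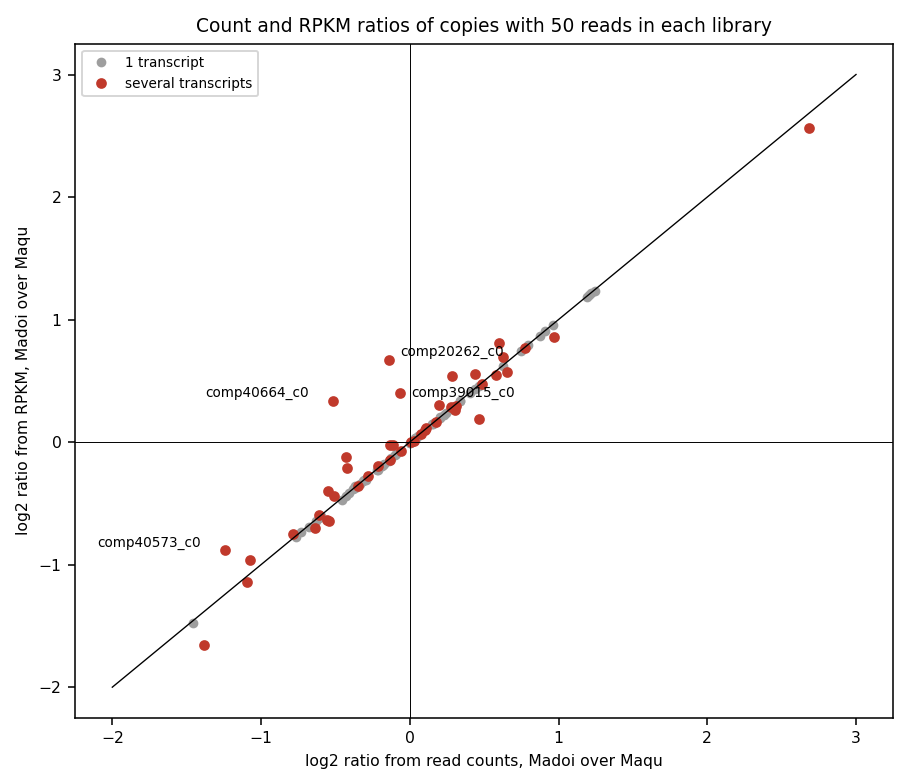
Log2 ratio from RPKM against log2 ratio from read counts, both Madoi over Maqu, for copies with at least 50 reads in each library, with a line of equality. Grey points (copies of 1 transcript) lie on the line, and red points (several transcripts) include comp40664_c0, comp20262_c0 and comp39015_c0, whose ratios are below 0 by counts and above 0 by RPKM.

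Among the 102 members that reached 50 reads in each library, 17 had a length behind RPKM that differed between the libraries by over 0.1 on the log2 scale, against 8.18% of all such copies. None of the 58 members with 1 transcript was among the 17. In 3 members the count and RPKM ratios had opposite signs with either of them past 0.1. The third of these, comp39015_c0 of beta 1, had a ratio of -0.07 by reads and 0.40 by RPKM.

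The cAMP-dependent protein kinase regulator, which holds the kinase inactive until cyclic AMP binds, had 14680 reads in Madoi against 17583 in Maqu over 6 copies (-0.15, from -0.18 to -0.12). Its 2 large copies were alike, with 8225 reads in Madoi against 10038 in Maqu (-0.18) and 6256 in Madoi against 7390 in Maqu (-0.13). Comp218257_c0, with 47 reads in Madoi against 23 in Maqu, was called higher (1.12, from 0.39 to 1.93).

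The other phosphodiesterases, 10 names that act on lipids, DNA or further substrates, had a median ratio of -0.55. Its interval, from -1.09 to 0.20, describes the spread over these names only and spans 0. Of the 10, 0 were called higher, where 5.89% of all names were, and 2 lower, where 7.15% were. Alkylglycerophosphoethanolamine phosphodiesterase had 763 reads in Madoi against 1758 in Maqu and was 2.13-fold lower in Madoi. Its single copy had no GO terms, so the name has no such check. Ectonucleotide pyrophosphatase/phosphodiesterase 6, a choline-specific enzyme of the cell surface, had 38 reads in Madoi against 129 in Maqu and was 3.12-fold lower. Its GO terms name lipid breakdown and the plasma membrane but no phosphodiesterase. Sphingomyelin phosphodiesterase, which releases ceramide, had 2035 reads in Madoi against 3489 in Maqu (-0.67). Sphingomyelin phosphodiesterase 4, with 732 reads in Madoi against 648 in Maqu, lay at 0.29.

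Tyrosyl-DNA phosphodiesterase 1, a DNA repair enzyme, had 503 reads in Madoi against 822 in Maqu (-0.60). Glycerophosphoryl diester phosphodiesterase, with 4074 reads in Madoi against 3948 in Maqu, lay at 0.16, as did 2',3'-cyclic-nucleotide 3'-phosphodiesterase, a myelin enzyme in mammals, with 2142 in Madoi against 2074 in Maqu. Beside these names, 2 of 4 liver-list names were called lower, where 7.15% of all names were. The 4 had a median of -1.02 and a summed level of 378.55 RPKM in Madoi and 938.54 RPKM in Maqu, and their part in the values was not tested.

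The name with the most reads was glycerophosphoinositol inositolphosphodiesterase, with 104493 reads in Madoi against 98186 in Maqu over 10 copies (0.20). All 10 copies had GO terms for calcium-dependent phospholipid binding, a property of annexins, and 0 had terms for a phosphodiesterase. Comp39774_c0 had 7297 reads in Madoi against 3 in Maqu, a log2 ratio of 11.13 (9.81 to 13.64), while the other 9 copies lay between -0.22 and 0.48. Without it the name's ratio was 0.10. With 3 reads in Maqu, at the limit used for a count of 0, comp39774_c0 stayed in the sums and among the copies called higher. Whether it is a lizard sequence was not tested. The authors' deposited table marked this copy as significant, with an FDR of 8.4e-15.

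Copies with no read in Maqu numbered 18 of the 155 members, or 11.6%, against 20.2% of all annotated copies. They spanned 9 names and held 4009 Madoi reads, 1.35% of the members' reads in that library, with a median of 78 reads a copy. Their median effective length was 473 bases, against 1299 bases for the other members. Whether they are lizard sequences was not tested. The reverse case, a member read in Maqu alone, was 1 copy of sphingomyelin phosphodiesterase 3 with 16 reads.

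The 5 with most reads were set, after scaling, against the limit of 3 counts in Maqu. These fold values leave out the counting error of the Madoi reads. Comp38152_c2 of beta 1 had 1282 reads in Madoi, 461-fold that limit, and comp38152_c1 of the same component had 376 (135-fold). Comp35049_c0 with the text adenylate cyclase had 589 reads (212-fold). Comp18753_c0 of alpha q had 459 reads (165-fold), and comp17774_c0 of "gamma, other" had 308 (111-fold). In this order, the lower ends of their counting intervals were log2 ratios of 8.55, 6.77, 7.42, 7.06 and 6.49. Adding such copies moved beta 1 to a ratio of 0.32 and alpha q to 0.40, both below 0 without them.

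**Figure D4:**
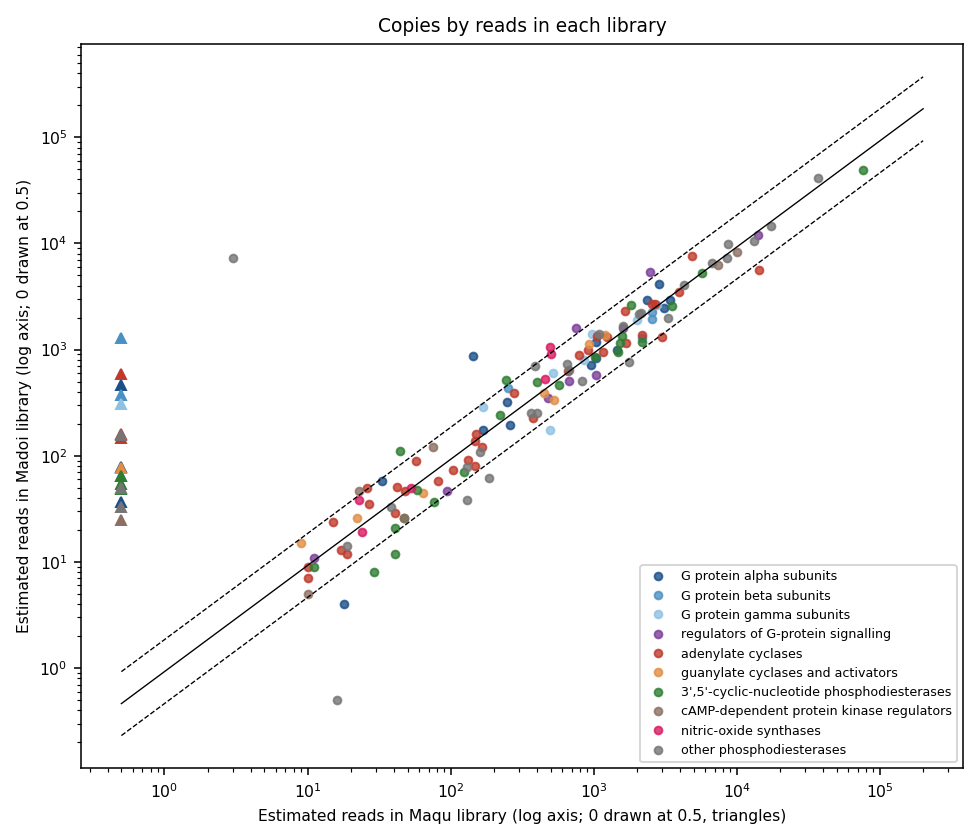
Estimated reads of each copy in Madoi (vertical) against Maqu (horizontal) on log axes, coloured by role, with a solid line at the scaled library ratio, dashed lines at 2-fold, and 0 drawn at 0.5. The 18 copies at 0 in Maqu form the column of triangles at the left, with 25 to 1282 Madoi reads, and the grey point near them is comp39774_c0.

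The authors' deposited table marked 14 of the 155 members as significant. Of these 12 were higher in Madoi, where 9.23% of all copies were so marked, and 2 were lower, where 1.2% were. Among the 14, 9 had no read in Maqu.

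Receptors and effectors around these proteins were also mostly even. Of 26 such names 1 was called higher, where 5.89% of all names were, and 2 lower, where 7.15% were, and their median was -0.09. The beta 1 and beta 2 adrenergic receptors, which act through the stimulating alpha subunit, had 1408 reads in Madoi against 1383 in Maqu (0.14) and 471 in Madoi against 362 in Maqu (0.49). The alpha 2a adrenergic receptor, which acts through inhibiting subunits, had 45 reads in Madoi against 98 in Maqu and was called lower (-1.01). Muscarinic receptor 2, the vagal receptor of the heart, had 443 reads in Madoi against 578 in Maqu (-0.27).

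The other called names were Rap guanine nucleotide exchange factor 5, lower with 171 reads in Madoi against 547 in Maqu (-1.56), and cyclic nucleotide gated channel alpha 4, a subunit of the olfactory channel in mammals, higher with 50 in Madoi against 4 in Maqu (3.59). Natriuretic peptide receptors A and B, which are themselves guanylate cyclases, had 104 reads in Madoi against 164 in Maqu (-0.54) and 1199 in Madoi against 1527 in Maqu (-0.24). Phospholamban, a target of protein kinase A in heart, had 1991 reads in Madoi against 2878 in Maqu (-0.42).

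A further 8 names, downstream of the messengers or of the alpha subunits, had a median of -0.35. Of these 0 were called higher and 1 lower, beside the same shares over all names. The lower one was cAMP response element modulator, a transcription factor that protein kinase A acts on, with 355 reads in Madoi against 899 in Maqu (-1.23). The text "protein kinase A" had 14562 reads in Madoi against 13514 in Maqu (0.22), and the cGMP-dependent protein kinase had 1672 in Madoi against 2244 in Maqu (-0.31). Phospholipase C beta, the target of alpha q and alpha 11, had 4914 reads in Madoi against 5856 in Maqu (-0.14).

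Marker lists of the other tissues gave mixed values. The heart list had a median of 0.52, with 2 of 4 names called higher, where 5.89% of all names were, and the other 2 below 0. The skeletal muscle list had a median of 0.05 with 0 of 4 called. For the lung list it was -0.69 with 1 of 2 called lower, where 7.15% of all names were, and no text for surfactant proteins. The testis list, a tissue the labels do not name, had a median of -0.06 over 4 names with 0 called and no text for protamine. Summed levels were 88.20 RPKM in Madoi and 78.87 RPKM in Maqu for heart, 3302.59 in Madoi and 3056.87 in Maqu for skeletal muscle, and 72.29 in Madoi and 81.26 in Maqu for lung. The part of tissue shares in the ratios of the signalling genes was not tested.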

How the data were processed

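Per the labels' protocols, total RNA was extracted with a Promega kit and made into Illumina libraries, and per the series' design text Trinity and BLAST were used. For the aligner, the counting tool and the authors' test, the sources used here give no name. The deposited table holds expected counts, RPKM computed by the authors with a length that can differ between the libraries, and FDR values (adjusted p-values) of the authors, which set 1 library against 1 and are quoted as theirs alone.

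Expected counts were rounded and scaled by TMM (edgeR 4.0.16; factors 0.983 for Madoi and 1.02 for Maqu), with a pseudocount of 0.5 reads. Ratios from RPKM were scaled by the same TMM factors, whereas RPKM levels were left as the authors gave them. Intervals of ratios and shares are exact 95% Clopper-Pearson intervals. Those of medians were taken from the ranked ratios of the names, which are not replicates. The limit for a count of 0 is 3 counts, which is 0.0479 CPM for Madoi and 0.0444 CPM for Maqu. Intervals of ratios and shares, and the limits, cover counting error only, since reads are not independent molecules. A name is an annotation text and its value the sum of its copies read in Maqu, so close paralogs under the same text cannot be told apart. No test was made.

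Named are all names called with at least 100 reads, the 3 of highest RPKM and the extremes with at least 50 reads in each role, all cyclases and nitric-oxide synthases, and the 5 copies with most Madoi reads among those at 0 in Maqu. Alpha 15, the single copies and further names were picked after their values were seen. The members and lists were chosen with earlier results of these data known, and the GO grouping and the 8 downstream names after the file was opened. Of the 17 texts searched for receptors and effectors, 12 were found. Calls were checked on data simulated with counting error alone, so the check does not cover variation between animals or libraries. Python 3.11.15 with scipy 1.17.1 was used. Some items of the marker lists are not reported here.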

Additional observations from a re-analysis of the deposited data

How the results depend on the processing

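No paired analysis was possible because each population has 1 library. The count of names called higher, 1, became 2 with all copies summed and 2 with only the top copy per name. With all copies summed, the added name was "guanylate cyclase, other", whose only copy had 77 reads in Madoi and none in Maqu. The count of names called lower, 4, became 0 at a 4-fold threshold and 2 with copies of matching GO terms. It became 3 with a filter of 50 reads, which leaves out alpha 15, 3 with all copies summed, 5 with the highest copy and 5 by RPKM. By RPKM the added name was sphingomyelin phosphodiesterase 3, with 33 reads in Madoi against 54 in Maqu, 16 of them from a copy read in Maqu alone. For copies, 9 called higher became 2 at 4-fold and 5 with matching GO terms, and 10 called lower became 1 and 6 under these settings. The 9 became 8 by library totals, 7 with a pseudocount of 5 reads and 8 without copies beyond a log2 ratio of 5. The 10 became 7 with a filter of 50 reads, 9 without copies beyond that ratio and 8 by RPKM. The beta subunit median, -0.27, was -0.026 with all copies summed, -0.081 by RPKM and 0.31 with matching GO terms. The regulator of G-protein signalling value, 0.17, was 0.12 by library totals, -0.11 for the highest copy, 0.28 by RPKM and 0.60 with matching GO terms. The 3',5'-phosphodiesterase value, -0.41, was -0.46 by library totals, -0.51 for the highest copy, 0.29 by RPKM and -0.46 with matching GO terms. The protein kinase regulator value, -0.15, was -0.20 by library totals and -0.095 by RPKM. Nitric-oxide synthase, 0.86, was 1.22 for the highest copy and 0.75 by RPKM. The median of the other phosphodiesterases, -0.55, was -0.30 without copies beyond a log2 ratio of 5 and -0.27 with the highest copy. "Gamma, other" turned to 0.072 with all copies summed. Of 33 named texts, 3 lost their call at 4-fold, and adenylate cyclase 5 and nitric-oxide synthase passed 2-fold with the highest copy. By RPKM the highest copy of adenylate cyclase 5 lay at -0.88, within 2-fold. For 4 of the 33 no copy had matching GO terms. Library totals, RPKM, DESeq2 1.42.0 size factors, no filter, a filter of 50 reads, no interval, a pseudocount of 5 reads and leaving out copies with a log2 ratio beyond 5 changed no call among the 33, which do not include alpha 15. The RPKM and GO settings were chosen after seeing the data. Ratios of names with few reads, such as alpha 15, are limited by depth.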
